A study of Mus musculus with 12 samples.

Results

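The DNA replication fork and origin factors are the proteins that mark replication origins, switch them on and copy the DNA at the moving fork. The 43 genes described here were chosen by gene symbol, out of 18193 genes with a single symbol on the array. They are the genes of the origin recognition complex, the GINS complex, the 3 replicative DNA polymerases with primase, replication factor C and replication protein A, together with Pcna, Cdc45, Cdc7, Dbf4, Fen1, Lig1, Dna2, Rnaseh2a, Wdhd1, Tipin, Timeless, Clspn and Chaf1b. The rule lists 45 symbols, of which Cdc45l is an older name of Cdc45 and Chaf1a was not analysed here. A probe set is a group of short probes for one transcript, and the 43 genes had 85 of them, of which the brightest over the 12 arrays stood for its gene.

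The cells were mouse embryonic fibroblasts of genotype TSC2-/-, so the loss of Tsc2 was shared by every group, controls included. TSC2 is part of the complex that restrains the growth-promoting kinase mTOR, and rapamycin inhibits mTOR complex 1. In the first experiment cells received DMSO vehicle or 20 nM rapamycin for 14 h. In the second, confluent cells were exposed for 10 h to an adenovirus that expressed GFP or PGC-1alpha, a transcriptional coactivator known for mitochondrial genes, and were collected 14 h after a change of medium. All cells grew in DMEM with CCS. Each group had 3 arrays, described in the series design as biological triplicates, and whether they came from more than 1 line of TSC2-/- cells was not stated. The p-values therefore measure the spread between these arrays. The authors normalized the 2 experiments separately, so levels were compared inside an experiment and changes were compared between them.

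Replication starts where the origin recognition complex has loaded the MCM helicase onto DNA. The kinase Cdc7 with its partner Dbf4, and the addition of Cdc45 and GINS, turn that helicase on at the start of S phase. Polymerase alpha with primase lays down primers, polymerase epsilon extends the leading strand and polymerase delta the lagging strand, held on the DNA by the PCNA ring that replication factor C loads. Many of these genes are known targets of E2F transcription factors and are transcribed mostly in cells that are about to enter or are in S phase.

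The virus acted as labelled: Ppargc1a, the gene for PGC-1alpha, read 81.0, 81.0 and 101 on the GFP arrays and 2295, 2183 and 2555 on the PGC-1alpha arrays. The Tsc2 probe set read 248, 259 and 278 with vehicle and 182, 217 and 196 with rapamycin. That is a fall without overlap (log2 -0.40, limma adjusted p = 0.00079). This probe set does not check the deletion, since its position relative to the deleted part is not known here. Array medians over all probe sets ran from 77.5 to 81.0. By its brightest probe set, every one of the 43 genes had a mean intensity above the array median in each of the 4 groups. Taking the brightest probe set favours high levels, and the share of other genes above the median was not computed. Of 12 fibroblast markers 8 exceeded 1000 in every group, while Lum read 40.7 or less on every array. Markers of other cell types were mixed, with a mean under 100 in every group for 4 of 7 macrophage, 4 of 5 endothelial, 3 of 5 muscle, 2 of 5 neural and 3 of 7 epithelial genes. Ptprc (at most 27.3), Pecam1 (at most 35.6), Myod1 (at most 66.9) and Sox2 (at most 12.7) were among the low ones. Others read well above the array median: Epcam 633 to 831, Nes 431 to 600, Krt18 361 to 576, Des 233 to 302, Csf1r 183 to 250, Cd14 176 to 294 and Kdr 146 to 207. With rapamycin 6 of 12 fibroblast, 2 of 7 macrophage and 3 of 7 epithelial markers rose, beside 11.3% of all genes. The macrophage ones were Cd68 and Cd14, and the epithelial ones Krt18, Cdh1 and Krt14. Of these, Cd68, Cdh1 and Krt14 had means under 100 in every group. Des and Nes fell, beside 18.0% of all genes. With PGC-1alpha none of the markers passed. The summed fibroblast markers were 61398 to 63171 with vehicle and 65114 to 69545 with rapamycin. The sums of macrophage markers were 757 to 786 and 822 to 844, of epithelial 1433 to 1496 and 1696 to 1753, and of neural 785 to 847 and 732 to 736, in that order. The Gapdh 3'/5' control ratio also moved with the groups, at 0.841 to 0.861 with vehicle and 0.807 to 0.826 with rapamycin, and at 0.865 to 0.879 with GFP and 0.894 to 0.906 with PGC-1alpha. The actin ratio overlapped between vehicle (1.29 to 1.33) and rapamycin (1.30 to 1.32), and between GFP (1.26 to 1.32) and PGC-1alpha (1.31 to 1.33). The part of these shifts in the results below was not tested.

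Rapamycin lowered most of the replication machinery. Of the 43 genes, 35 fell (limma, adjusted p under 0.05), against 18.0% of all genes, 1 rose, against 11.3% of all genes, and 7 did not pass. The median log2 change of the 43 genes was -0.53, beside -0.01 over all genes. The 35 genes that fell did so by 1.20-fold to 2.02-fold, with a median of 1.54-fold and adjusted p-values from 1.27e-07 to 0.0040. At least 1.5-fold falls were seen in 18 genes, beside 2.56% of all genes. In 37 of the 43 genes all rapamycin arrays lay below all vehicle arrays, beside 24.6% of all genes, and in 5 the groups overlapped. The falls reached origin recognition, origin firing, all 3 polymerases, the clamp and its loader, and the proteins that protect the fork. In such bulk samples, fewer cells in S phase and less of each RNA per cell cannot be told apart.

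**Figure D1:**
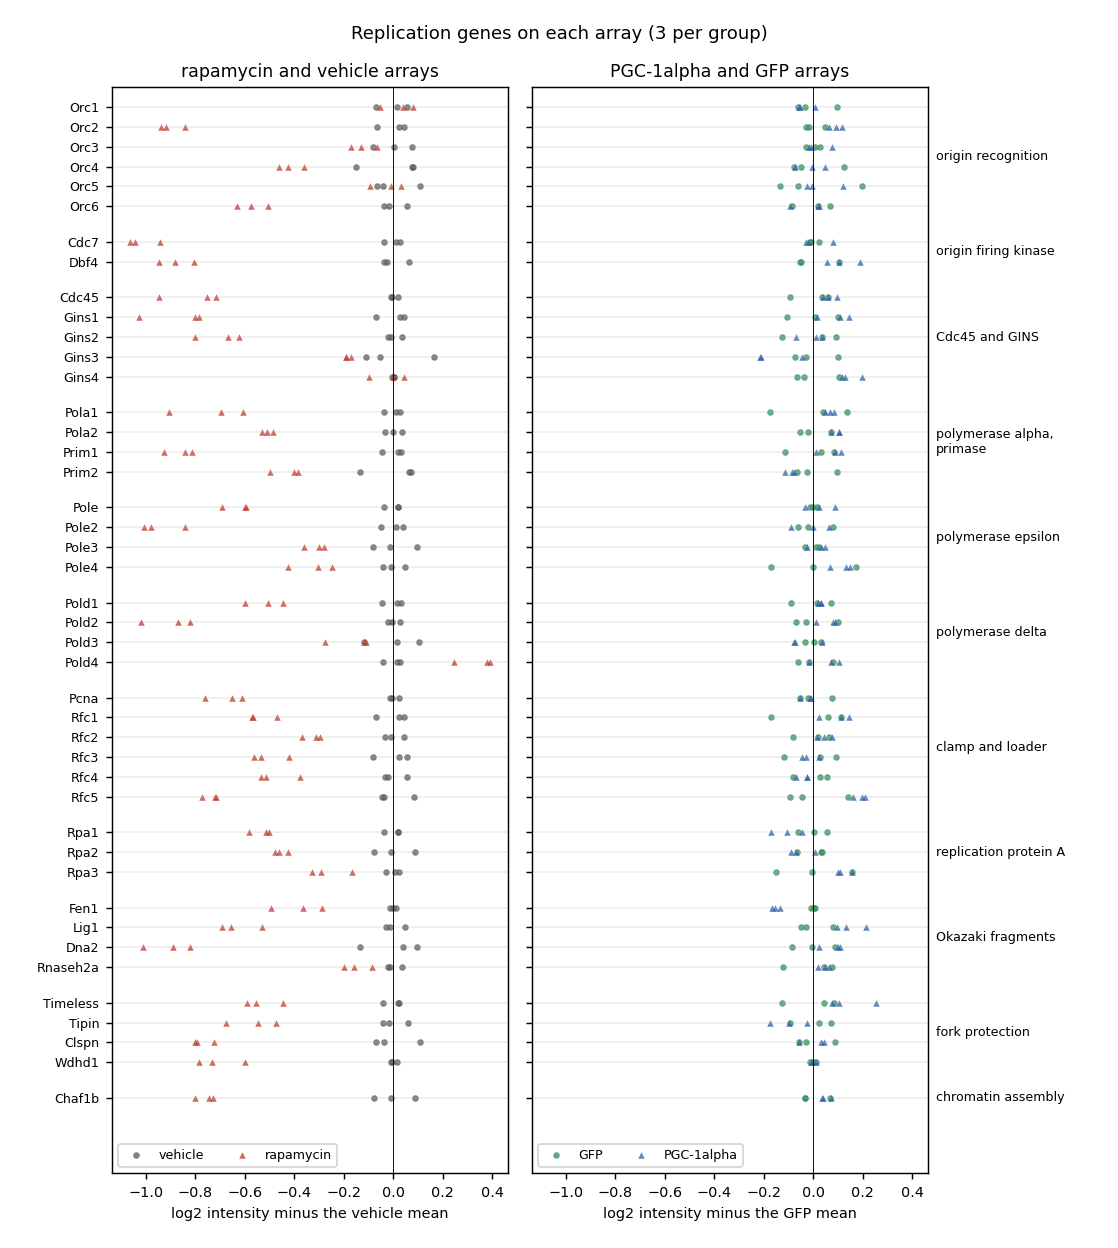
Each point is the log2 intensity of a gene on 1 array minus the mean of its control group, for 3 arrays per group, with vehicle and rapamycin on the left and GFP and PGC-1alpha on the right. The rapamycin arrays lie below the vehicle arrays for 37 of 43 genes, while the PGC-1alpha and GFP arrays overlap for 36 of 43.

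Promoter sequence was also examined. The genes were chosen by symbol for a role in replication, without use of their promoters. Many are known E2F targets, so E2F matches among them are not independent of that choice. RefSeq windows of 300 bases, from 250 before to 50 after the transcription start (build GRCm38.p6), were found for 36 of the 43 genes. Those shown are of Cdc7 and Pole2, which had the largest falls, and of Pold2 and Pold4, subunits of one polymerase that moved in opposite directions. Rfc3 was added after the matches were seen, because it had the most E2F matches in a window (2) of these 36 genes. They lie at chr5:106964072-106964371 on the plus strand (Cdc7), chr12:69228141-69228440 on the minus strand (Pole2), chr11:5878207-5878506 on the minus strand (Pold2), chr19:4231643-4231942 on the plus strand (Pold4) and chr5:151651159-151651458 on the minus strand (Rfc3). Each is written 5′ to 3′ along its gene, and capitals mark matches to an E2F motif on either strand.
Cdc7: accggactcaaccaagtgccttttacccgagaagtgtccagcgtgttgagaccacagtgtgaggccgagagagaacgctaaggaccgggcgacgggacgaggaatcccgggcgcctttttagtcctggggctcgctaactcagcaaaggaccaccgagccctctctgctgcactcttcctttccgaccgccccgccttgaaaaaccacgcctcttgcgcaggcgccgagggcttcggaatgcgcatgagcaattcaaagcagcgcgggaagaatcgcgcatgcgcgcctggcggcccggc
Pole2: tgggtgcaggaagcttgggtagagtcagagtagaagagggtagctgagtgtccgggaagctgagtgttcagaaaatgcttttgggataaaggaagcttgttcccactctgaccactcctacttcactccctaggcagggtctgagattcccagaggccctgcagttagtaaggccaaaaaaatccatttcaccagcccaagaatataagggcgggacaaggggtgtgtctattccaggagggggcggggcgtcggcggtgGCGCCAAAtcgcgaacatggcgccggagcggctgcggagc
Pold2: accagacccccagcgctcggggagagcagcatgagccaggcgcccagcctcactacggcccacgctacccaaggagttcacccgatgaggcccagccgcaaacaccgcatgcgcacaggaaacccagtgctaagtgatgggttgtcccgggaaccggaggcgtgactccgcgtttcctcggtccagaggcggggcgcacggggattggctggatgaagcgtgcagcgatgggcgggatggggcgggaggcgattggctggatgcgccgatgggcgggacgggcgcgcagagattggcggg
Pold4: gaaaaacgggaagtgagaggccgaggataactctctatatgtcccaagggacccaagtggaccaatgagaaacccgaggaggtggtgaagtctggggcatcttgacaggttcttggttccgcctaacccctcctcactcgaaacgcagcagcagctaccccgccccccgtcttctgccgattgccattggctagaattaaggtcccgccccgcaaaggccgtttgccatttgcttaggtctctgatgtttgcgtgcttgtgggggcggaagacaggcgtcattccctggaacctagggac
Rfc3: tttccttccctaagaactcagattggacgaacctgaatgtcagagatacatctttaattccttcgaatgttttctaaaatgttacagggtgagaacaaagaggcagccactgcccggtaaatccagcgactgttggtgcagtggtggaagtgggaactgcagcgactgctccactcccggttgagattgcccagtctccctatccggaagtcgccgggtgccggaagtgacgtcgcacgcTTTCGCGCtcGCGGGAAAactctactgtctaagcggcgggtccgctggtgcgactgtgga

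The E2F motif was searched as TTTCCCGC, TTTCGCGC, TTTGCCGC or TTTGGCGC on both strands. It was found in 12 of 45 windows of the replication genes (26.7%), beside 744 of all 32851 windows (2.26%). Counted by gene, 11 of 36 had a match (30.6%), beside 704 of all 27025 genes with a window (2.6%). The 11 were Clspn, Gins3, Lig1, Orc1, Orc3, Pola1, Pold1, Pold3, Pole2, Pole4 and Rfc3. Counted per window, the 13 matches lay from 138 bases before the start (Pola1) to 39 after it (Pold1). In Pole2 the match began 10 bases after the start, in the sequence shown, and in Rfc3 matches began 10 bases before the start and at it. By E2F match, the median log2 change with rapamycin was -0.51 for the 11 genes with a match, of which 7 fell, and -0.54 for the 25 without, of which 22 fell. Cdc7 and Pold2, both lowered strongly, and Pold4, which rose, had no match in the windows shown. The NF-Y box CCAAT was in 42.2% of the windows of replication genes and 37.4% of all windows, with 3 copies in the Pold2 window and 2 in that of Pold4. The E-box CACGTG was in 13.3% against 7.15%, and the CHR element TTTGAA in 15.6% against 17.9%. By gene, the median change was -0.84 for 6 genes with a CHR match, of which 5 fell, and -0.52 for 30 without, of which 24 fell. It was -0.53 with CCAAT and -0.52 without, and -0.52 with an E-box and -0.55 without. A match to these letters describes the sequence and does not show binding.

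The origin recognition complex, which marks origins and loads MCM, was divided. By brightest probe sets, 3 of its 6 genes fell and 3 did not pass. Orc2 read 628, 621 and 582 with vehicle and 319, 340.1 and 323 with rapamycin. The groups did not overlap, and Orc2 fell 1.87-fold (log2 -0.90, SE 0.06, adjusted p = 3.15e-07, n = 3 arrays per group). Orc6 fell by 0.57 and Orc4 by 0.41 on the log2 scale, also without overlap. Orc3 (-0.12), Orc5 (-0.02) and Orc1 (0.02) did not pass, and their arrays overlapped.

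Orc1, the ATPase subunit whose level follows the cell cycle, depended on the probe set. Its brighter probe set read 222, 235 and 242 with vehicle and 239, 224 and 246 with rapamycin. The other read 272, 277 and 255 with vehicle and 140.0, 159 and 161 with rapamycin, a 1.75-fold fall (log2 -0.81, limma adjusted p = 1.68e-06). The mean of both gave -0.39 (limma adjusted p = 4.61e-05), so whether Orc1 fell rests on which probe set is read. The brightest probe set had been picked over all arrays, rapamycin arrays included. By group means, the other probe set was the brighter one with vehicle (268 against 233), GFP (251 against 248) and PGC-1alpha (269 against 242). With rapamycin it was the dimmer one (153 against 237), so the pick for Orc1 rested on the rapamycin arrays.

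The kinase that fires origins lost signal for both subunits. Cdc7, the catalytic subunit, read 206, 208 and 199.5 with vehicle and 99.2, 106 and 97.8 with rapamycin. By brightest probe sets that is the largest change of the 43 genes, 2.02-fold (log2 -1.02, SE 0.06, limma adjusted p = 1.27e-07). The other Cdc7 probe set read 114, 116 and 116 with vehicle and 85.8, 88.5 and 82.0 with rapamycin, a 1.35-fold fall. By the mean of its probe sets Cdc7 gave -0.73, behind Pold2 (-0.90), Prim1 (-0.84), Gins2 (-0.75), Orc2 (-0.74) and Rfc5 (-0.74). Dbf4, the activating subunit, read 1291, 1384 and 1303 with vehicle and 689, 759 and 719 with rapamycin, and fell 1.84-fold. Neither gene's groups overlapped.

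Cdc45 and the GINS complex, which bind MCM to form the active helicase, did not move as a unit. Gins1 read 339, 342 and 316 with vehicle and 163, 193 and 191 with rapamycin, a 1.83-fold fall (log2 -0.87, SE 0.07, limma adjusted p = 1.63e-06). Cdc45 fell by 0.81 and Gins2 by 0.70 on the log2 scale. Gins4 stayed within the spread of its arrays: it read 736, 737 and 733 with vehicle and 687, 759 and 735 with rapamycin, a log2 change of -0.02 with a 95% interval from -0.14 to 0.10. Gins3 had all rapamycin arrays below all vehicle arrays but did not pass, at -0.18 (limma adjusted p = 0.071). The dimmer probe set of Cdc45 gave 0.08 and did not pass, and the Gins2 probe set carries the suffix of sets that match several transcripts.

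All 4 subunits of polymerase alpha and primase, which make the RNA and DNA primers, fell. Prim1, the catalytic primase subunit, read 1137, 1146 and 1087 with vehicle and 591, 628 and 639 with rapamycin. It fell 1.81-fold (log2 -0.86, SE 0.06, limma adjusted p = 4.00e-07), with no overlap. Pola1, the polymerase subunit, read 359, 363 and 347 with vehicle and 189.9, 234 and 220.2 with rapamycin, and fell 1.67-fold. Pola2 fell by 0.51 and Prim2 by 0.43 on the log2 scale. A dimmer Prim2 probe set fell further, by 0.82.

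The 4 subunits of polymerase epsilon, the leading-strand enzyme, fell by unequal amounts. Pole2 read 474, 465 and 445 with vehicle and 229, 234 and 258 with rapamycin, a 1.92-fold fall (log2 -0.94, SE 0.06, limma adjusted p = 3.72e-07). Pole, the catalytic subunit, fell by 0.63 on the log2 scale, from 445, 428 and 444 to 272, 291 and 290.2. The small histone-fold subunits moved less, Pole3 by -0.31 and Pole4 by -0.32. In none of the 4 did the arrays of the groups overlap.

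Polymerase delta, the lagging-strand enzyme, held the one rise. Pold2 read 1189.9, 1218 and 1176 with vehicle and 589.9, 654 and 676 with rapamycin, and fell 1.87-fold (log2 -0.90, SE 0.06, limma adjusted p = 5.14e-07). The catalytic Pold1 fell by 0.52 on the log2 scale. Pold4, the smallest subunit, went the other way. It read 227, 216 and 225 with vehicle and 263, 289.6 and 292 with rapamycin, with no overlap, and rose 1.26-fold (log2 0.34, SE 0.06, limma adjusted p = 0.00066). Scaled on the bacterial spike controls, where the median of all probe sets was -0.19, Pold4 gave 0.15 and did not pass (adjusted p = 0.133). Pold3 overlapped at its brightest probe set (-0.17, limma adjusted p = 0.0996), while its dimmer ones fell by 0.36 and 0.20.

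The sliding clamp and its loader fell as a whole, 6 of 6 genes. Pcna, the ring that tethers polymerases, read 6926, 7064 and 6885 with vehicle and 4111, 4561 and 4436 with rapamycin. The groups were far apart, and Pcna fell 1.59-fold (log2 -0.67, SE 0.06, limma adjusted p = 2.36e-06). Rfc5 changed most, from 1059.5, 1159 and 1064 to 639, 666 and 664, a 1.67-fold fall (log2 -0.74, SE 0.06, adjusted p = 1.27e-06). The large subunit Rfc1 fell by 0.54, Rfc3 by 0.51, Rfc4 by 0.47 and Rfc2 by 0.33 on the log2 scale.

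Replication protein A, which coats single-stranded DNA, fell in 3 of 3 subunits. Rpa1, the largest, read 4101, 4103 and 3944 with vehicle and 2700.2, 2862 and 2836 with rapamycin (log2 -0.53, SE 0.05, limma adjusted p = 8.83e-06). Rpa2 fell by 0.45. Rpa3 fell by 0.26, the smallest fall among the 35 genes, from 721, 738 and 748 to 586, 600.5 and 655. Even there the groups did not overlap.

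Among the enzymes that process Okazaki fragments, the short pieces of the lagging strand, 3 of 4 fell. The nuclease and helicase Dna2 read 281, 292 and 249 with vehicle and 135, 147 and 154 with rapamycin, a 1.88-fold fall (log2 -0.91, SE 0.07, limma adjusted p = 1.37e-06). Lig1, the ligase that seals the fragments, fell by 0.63 on the log2 scale, from 937, 927 and 978 to 586, 656 and 602. The flap nuclease Fen1 fell by 0.38 at its brightest probe set, whose suffix marks probes that may bind other transcripts, and by 0.88 at its other one. Rnaseh2a, the catalytic subunit of RNase H2, gave -0.15 with all rapamycin arrays below all vehicle arrays and did not pass (limma adjusted p = 0.066).

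The fork protection genes fell in 4 of 4 cases. Clspn, an adaptor for the checkpoint kinase Chk1, read 345, 306 and 312 with vehicle and 184, 194 and 185 with rapamycin, a 1.71-fold fall (log2 -0.77, SE 0.06, limma adjusted p = 1.43e-06). Wdhd1, which links polymerase alpha to the helicase, fell by 0.71 on the log2 scale, from 347, 341 and 343 to 199.7, 207 and 227. The partners Timeless and Tipin fell by similar amounts, 0.53 and 0.57. Chaf1b, a subunit of the chromatin assembly factor that follows PCNA, read 517, 580.3 and 541 with vehicle and 313, 329 and 325 with rapamycin, and fell 1.69-fold (log2 -0.76, SE 0.06, adjusted p = 1.30e-06).

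**Figure D2:**
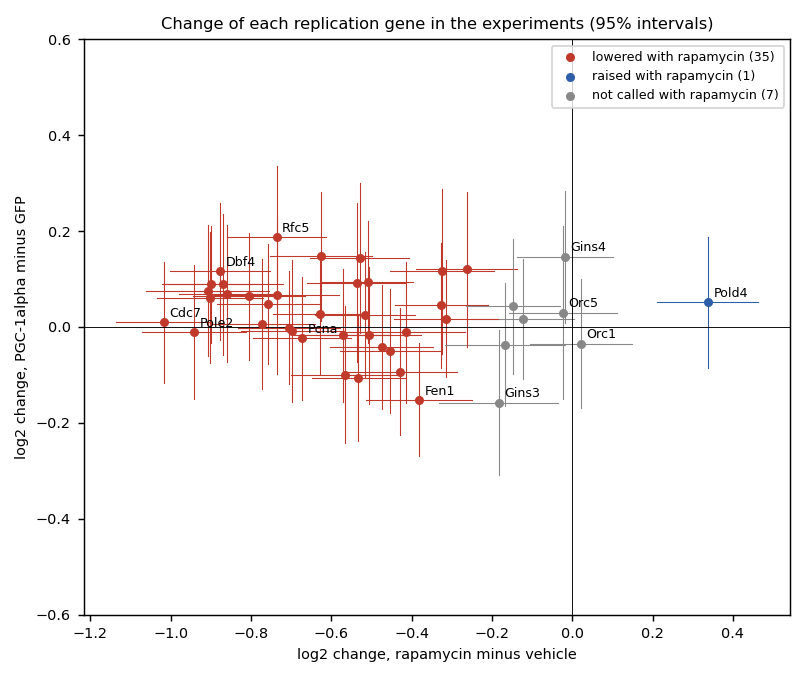
Each point is 1 of the 43 genes, with its log2 change with rapamycin on the horizontal axis and with PGC-1alpha on the vertical axis, 95% intervals from limma as bars (3 arrays per group), and colour for the call with rapamycin. The points spread from -1.02 for Cdc7 to 0.34 for Pold4 along the horizontal axis, and from -0.16 for Gins3 to 0.19 for Rfc5 along the vertical one.

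All 85 probe sets were also counted, among them the 43 that stood for their gene. The counts therefore include the 35 falls given above and are not separate from them. Of the 85 probe sets, 62 fell with rapamycin, beside 14.0% of the probe sets on the array, 1 rose and 22 did not pass. Of these 22, 11 had mean intensities under 100 in both groups, where a transcript cannot be told from background without detection calls. Among the 16 probe sets that dim, 5 fell, and among the 69 brighter ones 57 fell. In 30 genes with several probe sets, all of them fell in 15, some in 14 and none in 1, which was Orc3. At least 1 probe set fell in 38 of the 43 genes, which adds Orc1, Gins3 and Pold3 to the 35. Such a count grows with the number of probe sets of a gene. The same shares over all genes, also for the splits by gene and by brightness, were not computed.

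**Figure D3:**
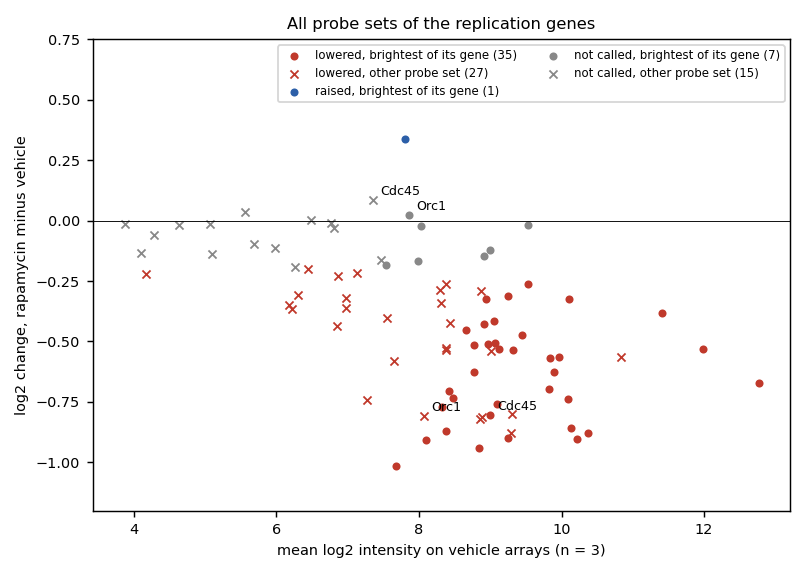
Each point is 1 of the 85 probe sets, placed by its mean log2 intensity on the 3 vehicle arrays and by its log2 change with rapamycin, with colour for the call and crosses for probe sets that did not stand for their gene. Of the 22 points without a call, 11 are of probe sets under an intensity of 100, and the labelled pairs of Orc1 and Cdc45 lie apart.

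Within a group, the same array was often highest or lowest across these genes. Rapamycin replicate 1 was the lowest of its group for 34 of the 43 genes, and its median deviation from the mean of both groups was -0.32, beside -0.24 and -0.27 for replicates 2 and 3. The vehicle arrays had median deviations of 0.28, 0.29 and 0.24, so the groups were apart in these medians. Leaving out any one of these 6 arrays gave 35 to 37 lowered genes. Gins3 (-0.24) and Pold3 (-0.23) then also passed without vehicle replicate 2, and Rnaseh2a (-0.18) without rapamycin replicate 2. GFP replicate 3 was the highest of its group for 35 genes and GFP replicate 2 the lowest for 34. The median SD of the 43 genes was 0.08 among GFP arrays and 0.05 among PGC-1alpha arrays, on the log2 scale. Over all genes it was 0.09 and 0.06, in that order. How often each array was highest or lowest over all genes was not computed.

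With PGC-1alpha no such fall was seen at the brightest probe sets. None of the 43 rose and none fell by limma at an adjusted p under 0.05, beside 1.41% of all genes raised and 0.594% lowered. At an unadjusted p under 0.05 there were 5 of the 43, beside 12.2% of all genes. The smallest adjusted p was 0.245, and the log2 changes ran from -0.16 to 0.19 with a median of 0.03. For the brightest probe sets, the 95% intervals reached from -0.31 to 0.34 at most. A fall as large as those of Cdc7 or Orc2 lay outside these intervals for every gene. All PGC-1alpha arrays lay above all GFP arrays in 5 genes (Orc2, Gins4, Pola2, Rfc5 and Lig1), beside 10.1% of all genes. They lay below in 2 (Prim2 and Fen1), beside 5.72%, and overlapped in 36.

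Cdc7 read 165, 169 and 164 with GFP and 175, 162 and 163 with PGC-1alpha, a log2 change of 0.01. Pcna read 6362, 6219 and 6797 with GFP and 6419, 6224 and 6403 with PGC-1alpha, a change of -0.02. The groups overlapped in both genes. Rfc5 had the largest change, from 885, 854 and 1005 to 1045, 1019 and 1053 (log2 0.19, SE 0.07, limma adjusted p = 0.257). Without GFP replicate 3, the highest GFP array for most of these genes, Rfc5 passed at 0.26 (limma adjusted p = 0.0185), and the rises over the whole array went from 449 to 1957 probe sets. Fen1 had the smallest p, from 3474, 3505 and 3508 to 3182, 3141 and 3113 (log2 -0.15, SE 0.05, limma adjusted p = 0.245). Gins3 read 218, 212 and 239 with GFP and 192, 192 and 216 with PGC-1alpha, at -0.16.

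Among the 85 probe sets 3 changed with PGC-1alpha, beside 1.95% on the array, and in each the gene's brightest probe set did not. The dimmer Timeless probe set read 315, 332 and 319 with GFP and 251, 229 and 229 with PGC-1alpha, and fell by 0.45 on the log2 scale (limma adjusted p = 0.0029), while the brighter one gave 0.14. A dimmer Rfc1 probe set fell by 0.39 (limma adjusted p = 0.012), while the brightest gave 0.09. A dim Pole3 probe set rose by 0.26 (limma adjusted p = 0.048), while the brightest gave 0.02. With rapamycin the same Timeless, Rfc1 and Pole3 probe sets fell by 0.34, 0.40 and 0.31. The rapamycin change minus the PGC-1alpha change was 0.10 for Timeless and -0.01 for Rfc1, which did not pass. For Pole3 it was -0.57 and passed. The difference between probe sets of a gene was not tested.

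The difference between the 2 changes was tested on all 12 arrays, as the rapamycin change minus the PGC-1alpha change. It was lower than 0 for 35 genes, beside 16.5% of all genes, higher for 1, beside 7.59%, and did not pass for 7. The 35 were the genes that fell with rapamycin, and the 1 was Pold4 (0.29, SE 0.09, limma adjusted p = 0.020). The largest difference was that of Cdc7 (-1.03, SE 0.08, limma adjusted p = 4.16e-08). Fen1 had the smallest that passed, -0.23 (limma adjusted p = 0.048). Pold4 did not pass in this test without vehicle replicate 2, rapamycin replicate 3 or PGC-1alpha replicate 2, nor with spike scaling. The experiments also differed in infection, and the labels give confluence for the infected cells alone, which cannot be told apart from the treatments in this contrast.

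Genes that work beside the 43 were read from lists of other steps, whose counts stand beside the 18.0% of all genes that fell and 11.3% that rose with rapamycin. Of 11 origin licensing genes 10 fell with rapamycin, with a median of -0.59: the MCM loader Cdc6 by 1.40, and the helicase subunits Mcm5 by 0.75 and Mcm6 by 0.65. Of 11 regulators of origin firing all 11 fell, led by the cyclins Ccne2 (-0.96) and Ccna2 (-0.84) and by Mtbp (-0.86), which helps load Cdc45. Of 11 genes of deoxynucleotide supply 9 fell, among them thymidine kinase Tk1 (-1.15), the ribonucleotide reductase subunit Rrm2 (-0.92) and Dck (-0.71). Of 7 genes of alternative clamp loaders and sister chromatid cohesion 5 fell, led by Dscc1 (-1.14), Esco2 (-0.80) and Atad5 (-0.75), and of 8 checkpoint genes 7, led by the kinase Chek1 (-0.71).

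Other lists were more divided, apart from that of mitosis genes. Of 13 E2F and pocket protein genes 7 fell, such as the E2F partner Tfdp1 (-0.52) and the repressor E2f8 (-0.72), and the retinoblastoma gene Rb1 rose by 0.56. Of 9 genes of translesion polymerases and their partners 4 fell, led by Rad18 (-0.62), which is not a polymerase. The polymerases Rev1 (-0.41) and Polh (-0.31) fell less, and Poli rose by 0.27. Among 5 topoisomerases Top2a (-0.58) and Top1 (-0.30) fell and Top3b rose by 0.20. The partner of Rnaseh2a, Rnaseh2b, fell by 0.47, one of 2 lowered genes among 3 of RNase H. Of 9 genes that replicate mitochondrial DNA 3 fell: Top1mt (-0.58), Tfam (-0.36) and Polg2 (-0.24). Of 7 CDK inhibitors 3 fell, such as Cdkn2d (-0.70), and 2 rose, led by Cdkn2b (0.49). Of 26 mitosis genes 24 fell with a median of -0.56, close to the -0.53 of the replication genes, led by the kinases Aurka (-0.86) and Bub1 (-0.85). With PGC-1alpha 1 of the 120 genes of these lists passed, the condensin subunit Smc4 (-0.27, limma adjusted p = 0.036), beside 1.41% of all genes raised and 0.594% lowered.

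**Figure D4:**
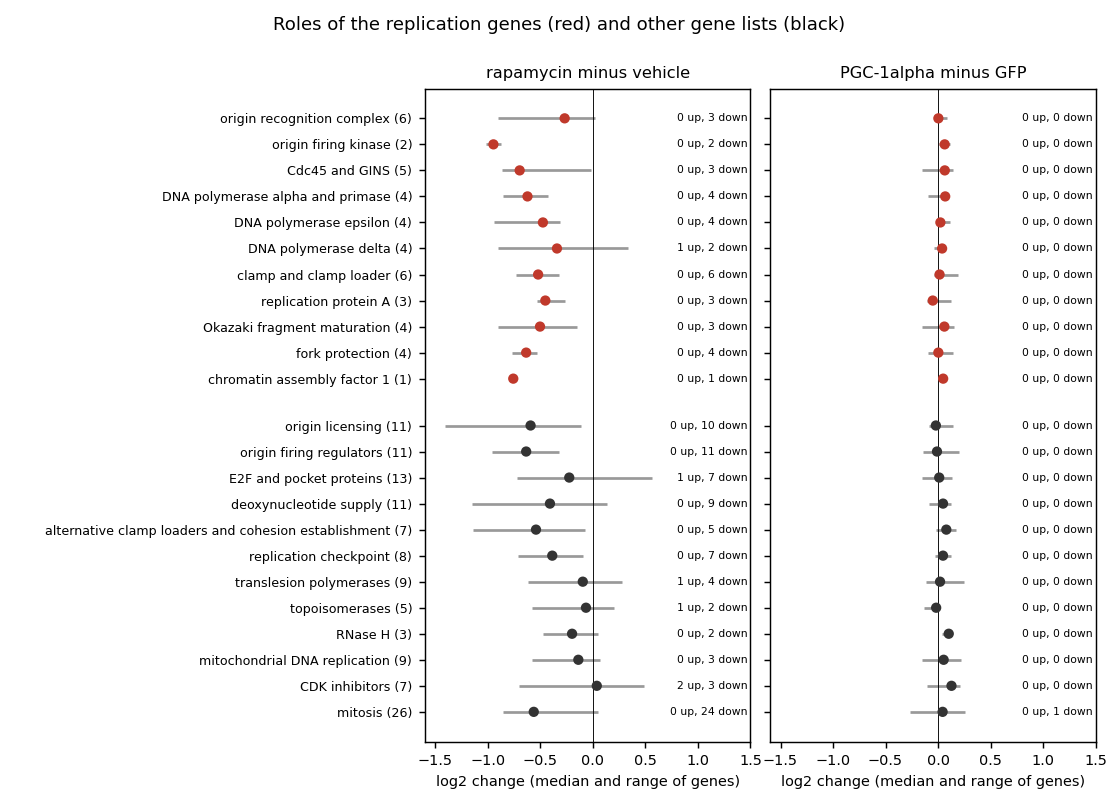
Points are the median log2 change and bars the range over the measured genes of each list, whose number stands in brackets, for the roles of the 43 genes (red) and other lists (black); counts give genes raised and lowered at an adjusted p under 0.05. Mitosis and origin licensing lie at -0.56 and -0.59 with rapamycin, beside 0.04 for CDK inhibitors, and every list lies near 0 with PGC-1alpha.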

How the data were processed

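The deposited table holds an intensity for each probe set of Affymetrix MOE430 v2 arrays, which the authors made with RMA per the series design text, in 1 batch for rapamycin and vehicle and another for PGC-1alpha and GFP. No source used here gives their scale; since they run from 9.299 to 21072, they were taken as linear and log2 was computed. RMA equalizes the arrays of a batch, so changes are relative to other probe sets, and a loss of total RNA would not be seen. No detection calls were used, and precision is limited by the number of arrays.

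Of 45101 probe sets, 64 controls were left out and 45037 tested without a filter; 34945 had 1 symbol in the platform table, 932 several and 9160 none. Of the 43 genes, 42 had the same brightest probe set in both experiments. Each comparison was fitted on its 6 arrays by lmFit and eBayes (limma 3.58.1, R 4.3.3), two-sided, with Benjamini-Hochberg adjustment over all 45037, and the fit was tested on simulated data. Tables and figures used Python 3.11.15, pandas 2.3.3 and matplotlib 3.10.9.

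The genes, roles and other lists were chosen with earlier results of these data known. Any of the 43 genes could be named; of each other list, up to 3 genes past the threshold with the largest change, and the largest opposite one, or, where none passed, those with the smallest p. Full statistics went to the gene of each role with the largest change. Samples were grouped by their labels.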

Additional observations from a re-analysis of the deposited data

How the results depend on the processing

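Across the settings tried, 35 to 40 of the 43 genes fell with rapamycin: 36 with log2(intensity + 16), 37 with probe sets above the median, 39 with the mean of a gene's probe sets and 40 with spike scaling. Spike scaling moved the median of all tested probe sets to -0.19 with rapamycin and to 0.16 with PGC-1alpha. Under it no gene passed as raised by rapamycin (0, against 1) and none as higher in the difference (0, against 1). Orc1 went from 0.02, which did not pass, to -0.39 (limma adjusted p = 4.61e-05) with the mean of its probe sets. Leaving out 1 array gave 35 to 37 lowered genes and 1 raised with rapamycin, and 0 to 1 raised with PGC-1alpha, the 1 being Rfc5 without GFP replicate 3. In the difference it gave 34 to 35 lower and 0 to 1 higher, with 0 without vehicle replicate 2, rapamycin replicate 3 or PGC-1alpha replicate 2. Quantile normalization over 12 arrays gave 32 lower in the difference. For rapamycin and vehicle, the deviations of same-numbered arrays from their group means correlated at -0.05, 0.07 and 0.005. For PGC-1alpha and GFP they correlated at -0.13, 0.23 and -0.01. With 3 arrays per group these values do not settle whether same-numbered arrays were paired. With the replicate block 35 genes fell and 1 rose with rapamycin, and 0 passed with PGC-1alpha. In the difference 34 were then lower and 1 higher. Moderated variances with a trend, a fit on 12 arrays and the brightest probe set over 6 arrays gave 35 lowered and 1 raised with rapamycin. The causes were not tested.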
